A study of Mus musculus with 8 samples.

Results

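Type I interferon-stimulated genes were followed in the livers of control and hepatocyte-specific melanocortin 1 receptor knockout (Mc1r LKO) mice. A list of 43 names, covering antiviral effectors, nucleic acid sensors, signalling genes and the Ifi200 cluster, was matched by symbol to the 55487 genes of the count tables. The names came to 42 genes, because Mnda is an older name of Ifi211 in the reference table. All 42 were among the 13400 genes that passed the filter on low counts.

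RNA sequencing was done on 1 whole-liver library from each of 8 male mice, which had been put on a Western diet at the age of 8 weeks, kept on it for 12 weeks and fasted for 4 h before the end. The 4 control mice (numbers 154, 159, 181 and 193) were age-matched Mc1r fl/fl animals without Cre. The 4 Mc1r LKO mice (numbers 141, 156, 157 and 182) were Mc1r fl/fl and also carried Alb Cre/+, in which the albumin promoter drives Cre recombinase in hepatocytes, so that the other cells of the liver kept the floxed allele. Both genotypes therefore shared the floxed allele and the diet, and the control mice lacked the Cre transgene as well as the deletion.

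Type I interferons bind the receptor formed by IFNAR1 and IFNAR2, and the kinases JAK1 and TYK2 then relay the signal to the ISGF3 complex, which holds STAT2 and IRF9. This complex binds the interferon-stimulated response element (ISRE) in the promoters of its target genes, whereas interferon gamma acts through the gamma-activated site (GAS). In the liver, hepatocytes, sinusoidal endothelial cells and the resident macrophages, called Kupffer cells, all express interferon-stimulated genes.

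The promoters of the members were searched for both elements. Because the list names interferon-stimulated genes, a high share with the ISRE could be foreseen. RefSeq promoter sequences on GRCm38.p6, reaching from 250 bases before to 50 bases after each annotated start, were found for 30 of the 42 genes, which had 37 promoters in all. The ISRE motif was searched as GAAANNGAAA, or TTTCNNTTTC on the opposite strand, and overlapping matches were kept. It was present in 20 of the 37 member promoters (54.1%), which belonged to 18 genes, and in 3.44% of the 32851 promoters of all genes. The GAS motif, TTCNNNGAA on either strand, was present in 7 of the 37 member promoters (18.9%) and in 8.30% of all promoters. Stretches that end at the annotated start are printed 5′ to 3′ on the strand of the gene, with matched motifs in capitals, for the ubiquitin-like modifier Isg15, the membrane-bound virion tether Bst2 and the transcription factor Irf1, which differ in the motifs they hold.

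Isg15, chr4:156200819-156200938, minus strand: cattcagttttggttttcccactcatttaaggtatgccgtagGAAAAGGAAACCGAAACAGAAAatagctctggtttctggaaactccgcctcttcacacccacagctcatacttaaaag
Bst2, chr8:71537473-71537632, minus strand: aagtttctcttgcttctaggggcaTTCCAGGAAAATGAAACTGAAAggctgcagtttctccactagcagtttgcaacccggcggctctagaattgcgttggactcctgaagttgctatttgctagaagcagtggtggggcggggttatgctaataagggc
Irf1, chr11:53769894-53770013, plus strand: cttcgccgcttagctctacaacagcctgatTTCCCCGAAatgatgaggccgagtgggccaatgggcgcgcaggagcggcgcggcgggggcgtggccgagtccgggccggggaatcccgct

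Isg15 held 3 overlapping ISRE matches, which began 78, 72 and 66 bases before the start. Bst2 held 2 ISRE matches, 130 and 124 bases before the start, and a GAS match that overlapped them at 136 bases. Irf1 held no ISRE match in this window and 1 GAS match at 90 bases. The promoters of Ifit3 and its paralog Ifit3b are shown because the reads of these genes are partly shared.

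Ifit3, chr19:34583359-34583528, plus strand: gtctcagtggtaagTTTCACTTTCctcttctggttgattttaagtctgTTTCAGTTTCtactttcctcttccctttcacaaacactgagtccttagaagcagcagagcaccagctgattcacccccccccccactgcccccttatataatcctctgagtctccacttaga
Ifit3b, chr19:34607757-34607956, plus strand: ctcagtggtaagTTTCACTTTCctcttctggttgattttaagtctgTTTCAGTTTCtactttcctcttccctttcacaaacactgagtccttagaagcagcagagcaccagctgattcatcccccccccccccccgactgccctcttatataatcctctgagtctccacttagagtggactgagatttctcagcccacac

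Each of these promoters held 2 ISRE matches on the opposite strand. They began 156 and 122 bases before the start in Ifit3 and 188 and 154 bases before it in Ifit3b. A motif match describes the sequence only.

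The total count of a library was 10773151 at the lowest, in control mouse 159, and 24763375 at the highest, in Mc1r LKO mouse 157. A gene without counts could still have had up to 3 counts, which is 0.121 to 0.278 CPM (the count of a gene relative to the total of its library) depending on the mouse. The targeted gene Mc1r had 0 counts in every one of the 8 mice, so that it was not detectable at this depth and the labels could not be checked against it. The summed level of 6 hepatocyte genes was between 72433 and 107081 CPM over the 8 mice. Levels below are CPM with TMM normalization, and levels of different genes are compared only as RPKM, in which CPM is divided by the exonic length in kilobases. In whole tissue, fewer cells of a type and less RNA per cell cannot be told apart. The limit of 3 counts for a gene without counts covers counting error only.

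No member passed the test of the genotypes at an adjusted p-value under 0.05. With edgeR's quasi-likelihood test and Benjamini-Hochberg adjustment over all genes tested, the smallest adjusted p of a member was 0.734, and 0 of the 13400 genes (0%) passed. At an unadjusted p-value under 0.05 with a log2 fold change of at least 0.25 in either direction, 2 of the 42 members were lower in Mc1r LKO mice, Oas2 and Parp14, and 0 were higher. Over all genes tested, 2.66% were lower and 2.64% higher by the same rule. In 0 of the 42 members did the 4 control and the 4 Mc1r LKO mice not overlap, against 4.16% of all genes. DESeq2, the likelihood ratio test of edgeR and limma-voom also called 0 members at the adjusted p-value, while over all genes they called 17, 8 and 0. DESeq2 gave no adjusted value for 22 of the 42 members.

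The fold changes leaned to one side without passing the test. The log2 fold change, Mc1r LKO over control, was negative in 37 of the 42 members (88.1%) and in 52.1% of all genes tested. Its median was -0.26 over the members and -0.01 over all genes, and its range over the members was from -0.88 for Zbp1 to 0.52 for Ifi211. Without control mouse 159 the median was -0.09, with 34 of 42 negative and 0 members lower at the unadjusted p-value, where 1.84% of all genes were lower and 3.81% higher. The number of members lower at the unadjusted p-value was also 0 without Mc1r LKO mouse 141 (2.27% of all genes) and 1 without control mouse 193 (2.35%). It was 5 without control mouse 154 (2.99% of all genes) and 7 without control mouse 181 (3.42%).

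**Figure D1:**
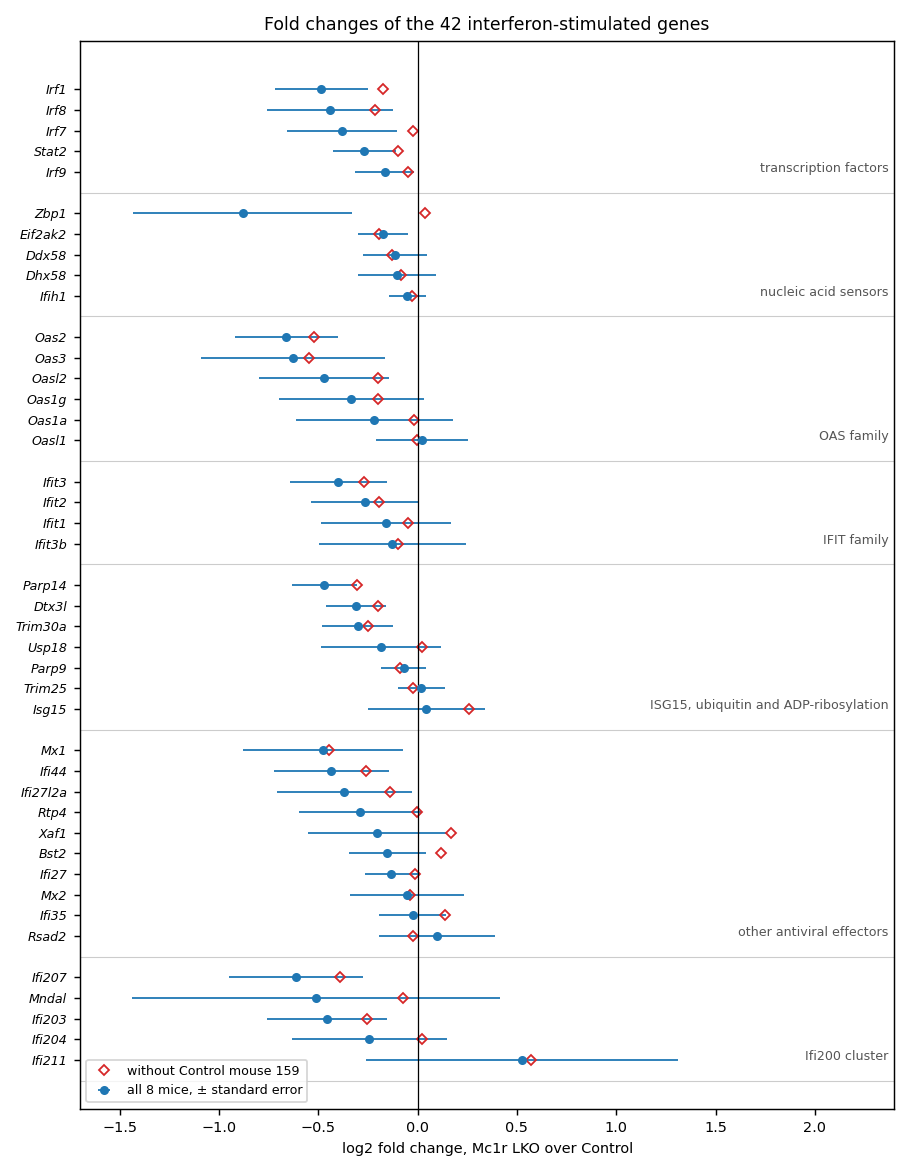
Log2 fold change (Mc1r LKO over control, horizontal axis) of each of the 42 genes, grouped by role on the vertical axis. Blue points with bars give the estimate of edgeR over all 8 mice ± its standard error, and open red diamonds the estimate without control mouse 159. Of the 42 blue points, 37 lie left of 0, with Zbp1 furthest left at -0.88, and without mouse 159 Zbp1 stands at 0.04.

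Within each genotype, individual mice stood apart over many members at once. Control mouse 159 had the highest level of the 8 mice in 26 of the 42 members (61.9%) and in 18.0% of all genes tested. Control mouse 193 was highest in 9 further members, and control mouse 181 in 0. At the other end, Mc1r LKO mouse 182 was lowest in 18 members (42.9%, against 21.7% of all genes) and Mc1r LKO mouse 141 in 16 (38.1%, against 12.4%). Seen over the members, the median deviation from each gene's mean log2 CPM was 0.56 in mouse 159 and 0.36 in mouse 193, but -0.04 in mouse 154 and -0.24 in mouse 181, also controls. In the Mc1r LKO mice it was -0.33 in mouse 141, -0.05 in mouse 156, 0.19 in mouse 157 and -0.25 in mouse 182, so that 2 of the 4 controls lay within the range of the Mc1r LKO mice. Relative to the median of the other 3 controls, mouse 159 was over 1.5 times as high in 19 of the 42 members (45.2%, against 11.4% of all genes). This ratio had a median of 1.43 over the members and ranged from 0.713 for Rsad2 to 6.49 for Zbp1.

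**Figure D2:**
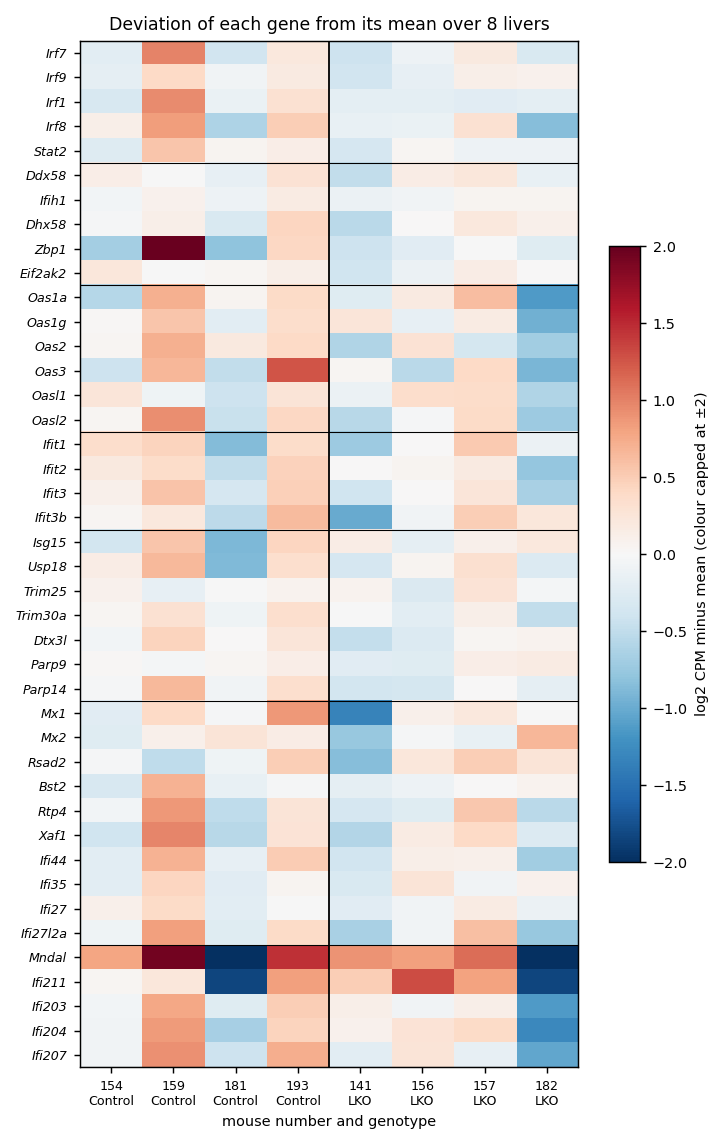
Deviation of log2 CPM from the gene's mean over the 8 livers, in colour, for each of the 42 genes (vertical axis, roles separated by lines) and each mouse (horizontal axis, controls left of the line). The column of control mouse 159 is above the mean in 36 of 42 genes and that of control mouse 181 in 7 of 42, and the Ifi200 genes Mndal and Ifi211 are far below their means in mice 181 and 182.

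Markers of some other cells moved with the same mouse. Of 11 Kupffer cell and macrophage genes, 11 were highest in mouse 159, and their summed level was between 402.5 and 1012 CPM in controls, with the top in mouse 159, and between 284.7 and 623.3 CPM in the knockouts (exact permutation test, two-sided, p = 0.314). The lowest of these sums belonged to mouse 182. All 11 genes had negative log2 fold changes (52.1% of all genes), with a median of -0.43. Of the 11, 1 was lower at the unadjusted p-value with the fold limit (2.66% of all genes). Without mouse 159, 9 of the 11 were negative with a median of -0.16, and 0 were lower (1.84% of all genes). The summed level of 10 T and NK cell genes reached 10.1 CPM in mouse 159, whereas the other 7 mice had 2.60 to 4.81 CPM. Only 1 of these 10 genes passed the filter on low counts, and that gene was not highest in mouse 159. The sums of B cell and conventional dendritic cell genes were also highest in mouse 159. Those of monocyte, neutrophil, plasmacytoid dendritic cell, sinusoidal endothelial and hepatocyte genes were not. None of these marker genes was at 0 in every mouse. Whether these cells had a part in the levels of the members was not tested.

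The transcription factors that carry the interferon signal were highest in mouse 159 in 5 of 5 cases, and all 5 had negative log2 fold changes, with a median of -0.38, none passing the unadjusted test. Stat2, the STAT of the ISGF3 complex, was at 49.2, 86.9, 61.3 and 64.5 CPM in control mice 154, 159, 181 and 193 and at 46.7, 60.8, 54.6 and 54.7 CPM in Mc1r LKO mice 141, 156, 157 and 182, an order of mice that is kept for all values below. Mouse 159 stood above the other 7, and the other 3 controls overlapped with the Mc1r LKO mice. The log2 fold change of Stat2 was -0.27 ± 0.16 (SE, n = 4 per genotype). Irf7, which amplifies the interferon response, was at 25.4, 59.0, 22.6 and 34.4 CPM in controls and 22.1, 27.6, 34.0 and 23.9 CPM in the knockouts. Its log2 fold change of -0.38 ± 0.28 shrank to -0.02 without mouse 159.

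Irf1, an early target of interferon signalling that was singled out after its values were seen, had the most even levels in the knockout. It was at 24.4, 59.1, 27.7 and 37.8 CPM in controls (37.3 ± 15.6, SD, n = 4) and at 26.5, 26.7, 26.0 and 26.7 CPM in Mc1r LKO mice (26.5 ± 0.313, SD, n = 4). The 4 Mc1r LKO mice lay between controls 154 and 181. Its log2 fold change was -0.48 ± 0.23 in all mice and -0.17 without mouse 159. The remaining members of the group, Irf8 and Irf9, had log2 fold changes of -0.44 and -0.17.

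The cytosolic sensors of nucleic acid, except for Zbp1, spanned less than 2-fold from their lowest to their highest mouse. The RNA helicase Ddx58 (RIG-I) was at 26.0, 23.8, 21.3 and 29.2 CPM in controls and 16.9, 26.4, 27.7 and 21.5 CPM in Mc1r LKO mice, with a log2 fold change of -0.11 ± 0.16. Dhx58 (LGP2), a regulator of the RNA helicases, was at 11.2, 12.3, 9.16 and 15.3 CPM against 7.80, 11.4, 13.2 and 12.2 CPM, and its log2 fold change was -0.11 ± 0.20. For both genes the genotypes overlapped over most of their range, and mouse 159 was not the highest. Ifih1 (MDA5) spanned only 1.22-fold from its lowest to its highest mouse, and the RNA-dependent kinase Eif2ak2 (PKR) 1.54-fold.

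Zbp1, a sensor of left-handed nucleic acid that can start necroptosis, was at 2.97, 19.3, 2.71 and 6.43 CPM in controls and at 3.59, 4.09, 4.80 and 4.08 CPM in Mc1r LKO mice. Mouse 159 stood at 3.0 times the next highest mouse, and controls 154 and 181 were below all 4 Mc1r LKO mice. The log2 fold change was -0.88 ± 0.55 in all mice, the most negative of the members, and turned to 0.04 without mouse 159.

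**Figure D3:**
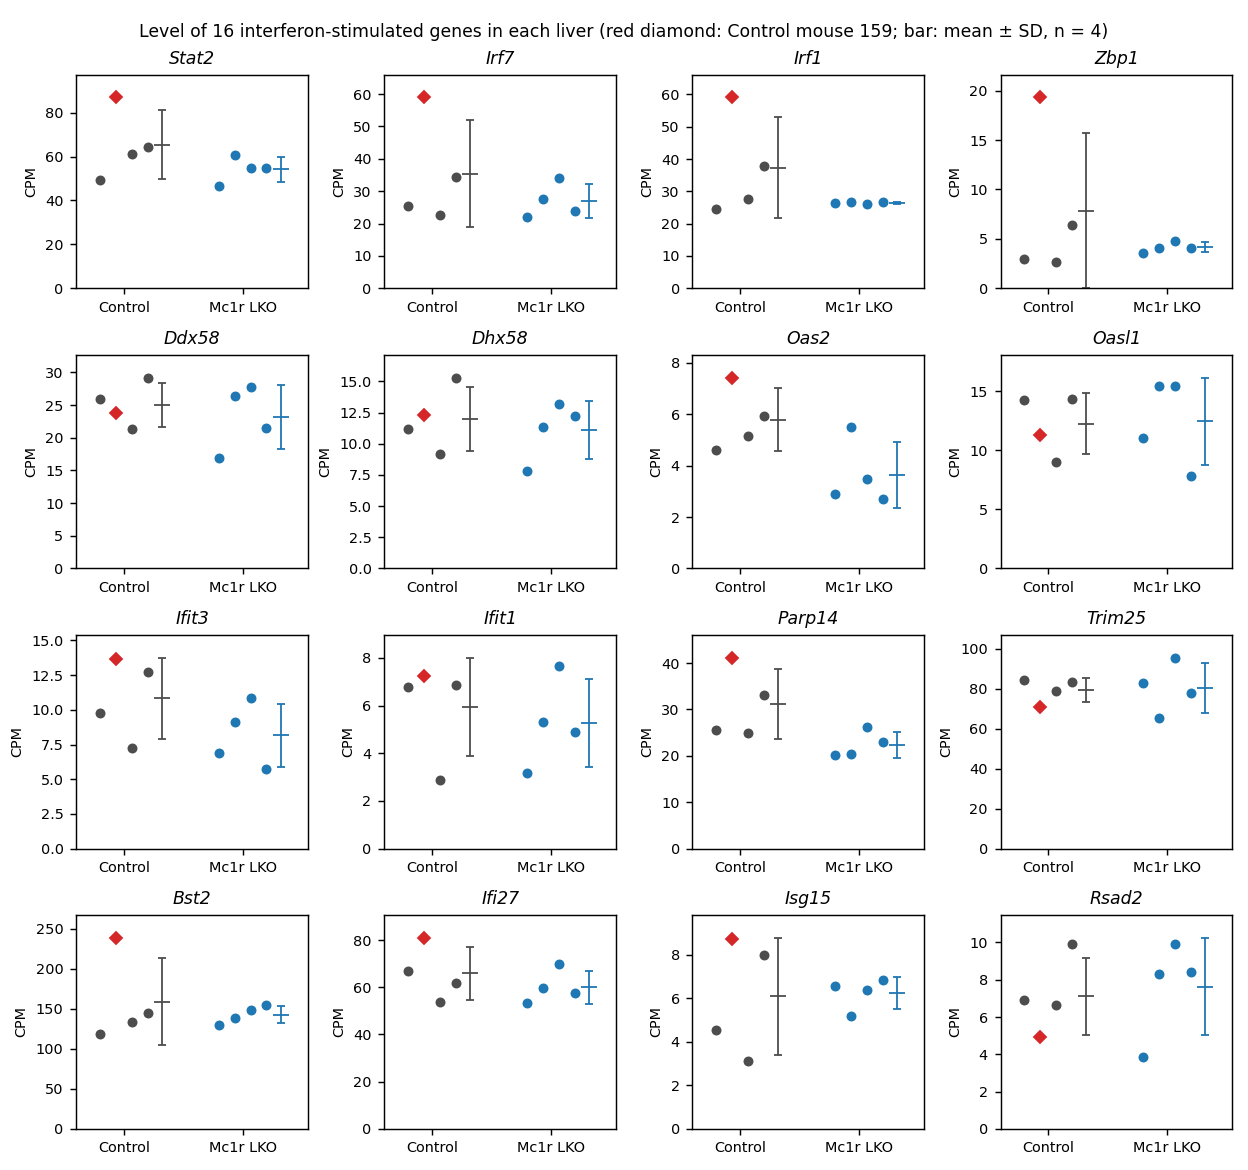
CPM (vertical axis, from 0) of 16 genes in each control and Mc1r LKO liver. Each point is 1 mouse, the red diamond is control mouse 159, and the bars give the mean ± SD of the 4 mice of a genotype. Mouse 159 is the highest point for Stat2, Irf7, Irf1 and Zbp1 (19.3 CPM) and lies among the other mice for Ddx58, Oasl1 and Rsad2 (4.92 CPM).

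The oligoadenylate synthetases, which make the activator of RNase L, held 1 of the 2 members below the unadjusted threshold. Oas2 was at 4.62, 7.43, 5.15 and 5.95 CPM in controls (5.79 ± 1.22, SD, n = 4) and 2.90, 5.52, 3.47 and 2.71 CPM in Mc1r LKO mice (3.65 ± 1.29, SD, n = 4). Of the knockout mice, 141, 157 and 182 lay below every control, and mouse 156 lay among the controls. The log2 fold change was -0.66 ± 0.26 (adjusted p = 0.734, quasi-likelihood test of edgeR, Benjamini-Hochberg adjustment), and over the removal of each mouse in turn it stayed between -0.92 and -0.52. The unadjusted p-value of edgeR's test was 0.0288 in all mice and 0.0831 without mouse 159. Oas2 also missed the unadjusted threshold without control mouse 193 and without each of Mc1r LKO mice 141, 157 and 182.

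The other oligoadenylate synthetases among the members did not share that separation. Oas1b, which is not a member, was lower without overlap, at 1.63 to 2.14 CPM in controls and 0.691 to 1.43 CPM in Mc1r LKO mice. Oas3 was at 1.49, 3.25, 1.41 and 4.97 CPM in controls and 2.07, 1.36, 2.7 and 1.02 CPM in Mc1r LKO mice, with a log2 fold change of -0.63 ± 0.46. Oas1a was at 1.86, 4.64, 2.92 and 3.71 CPM against 2.35, 3.18, 4.36 and 1.23 CPM, with a log2 fold change of -0.22 ± 0.39. Oas3 and Oas1a overlapped between the genotypes, each with its lowest value in Mc1r LKO mouse 182. The catalytically inactive relative Oasl1, which binds RNA, was at 14.3, 11.3, 9.01 and 14.4 CPM in controls and 11.0, 15.4, 15.5 and 7.86 CPM in the knockouts. Its log2 fold change was 0.02 ± 0.23, and -0.02 with scaling by library size alone. Mouse 182 was the lowest of the 8 mice for 6 of the 6 members of the family, while the family's median log2 fold change was -0.40. Of the 50-base windows in the transcripts of Oas1a, 57.6% also occurred in transcripts of its paralogs, so that its counts are uncertain.

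The IFIT proteins, which bind viral RNA through tetratricopeptide repeats, had negative log2 fold changes in 4 of 4 members with a median of -0.21, none passing the unadjusted test. Ifit3 was at 9.77, 13.6, 7.24 and 12.7 CPM in controls and 6.91, 9.15, 10.9 and 5.77 CPM in the knockouts, with a log2 fold change of -0.40 ± 0.25. Ifit1, which recognises RNA without a methylated cap, was at 6.80, 7.24, 2.86 and 6.88 CPM in controls and 3.18, 5.32, 7.67 and 4.90 CPM in the knockouts, with a log2 fold change of -0.16 ± 0.33. Control mouse 181 had the lowest Ifit1 of all, and Mc1r LKO mouse 157 the highest. Ifit3 shared 51.2% of its 50-base windows with another gene and Ifit3b 45.0%, so that the split of reads between this pair is uncertain.

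Among the genes of ISG15 conjugation, ubiquitin ligation and ADP-ribosylation, Parp14 had the smallest unadjusted p-value of all members. Parp14, a mono-ADP-ribosyltransferase, was at 25.7, 41.1, 24.9 and 33.1 CPM in controls (31.2 ± 7.59, SD, n = 4) and 20.1, 20.4, 26.1 and 23.0 CPM in Mc1r LKO mice (22.4 ± 2.78, SD, n = 4). Of the Mc1r LKO mice, 157 lay above controls 154 and 181, and the other 3 lay below every control. The log2 fold change was -0.47 ± 0.17 (adjusted p = 0.734, quasi-likelihood test of edgeR, Benjamini-Hochberg adjustment). The unadjusted p-value of edgeR's test was 0.0171, and it was 0.0523 without mouse 159, with a log2 fold change of -0.31. Parp14 also missed the unadjusted threshold without Mc1r LKO mouse 141.

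Parp9, which acts with the ubiquitin ligase Dtx3l, lies in 1 stretch of chromosome 16 with Dtx3l and Parp14. It was at 51.3, 48.9, 52.0 and 55.3 CPM in controls and 42.9, 42.5, 55.4 and 56.7 CPM in the knockouts, with a log2 fold change of -0.07 ± 0.11. Trim25, the ubiquitin ligase that modifies RIG-I, was at 84.4, 70.7, 78.8 and 83.3 CPM against 83.0, 65.2, 95.4 and 77.6 CPM. Its log2 fold change of 0.02 ± 0.12 was -0.03 with scaling by library size alone. Mouse 159 had the lowest level of both genes among the controls. Isg15 itself, singled out after its values were seen, was at 4.57, 8.73, 3.12 and 7.98 CPM in controls and 6.56, 5.19, 6.38 and 6.84 CPM in Mc1r LKO mice, so that the 4 knockouts lay between control pairs 154 with 181 and 159 with 193. Its log2 fold change was 0.04 ± 0.30, and -0.01 with scaling by library size alone.

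The 3 most abundant members per length were antiviral effectors. Bst2 (tetherin) had the highest mean level per length, 167 RPKM over the 8 mice, followed by Ifi27 with 42.9 RPKM and Ifi35 with 15.4 RPKM, whereas the lowest, Oas3, had 0.323 RPKM. In all, 8 of the 42 members had a mean of at least 10 RPKM and 5 a mean under 1 RPKM. Bst2 was at 118, 239, 133 and 145 CPM in controls and 130, 138, 148 and 155 CPM in Mc1r LKO mice. Mouse 159 stood above the other 7, among which the genotypes overlapped, and leaving it out moved the log2 fold change from -0.15 ± 0.20 to 0.12. Ifi27 was at 66.8, 81.0, 53.9 and 62.0 CPM against 53.3, 59.6, 69.8 and 57.4 CPM, a log2 fold change of -0.13 ± 0.13 with overlapping genotypes.

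The other 8 effectors, among them the GTPases Mx1 and Mx2, had log2 fold changes from -0.48 for Mx1 to 0.10 for Rsad2, none passing the unadjusted test. Rsad2 (viperin), singled out after its values were seen, was at 6.90, 4.92, 6.66 and 9.94 CPM in controls and 3.87, 8.31, 9.93 and 8.42 CPM in Mc1r LKO mice. It was the member in which mouse 159 stood lowest relative to the other controls. Xaf1, a partner of the inhibitors of apoptosis and likewise chosen after its values were seen, was at 4.89, 12.8, 4.37 and 7.86 CPM in controls and 4.28, 7.27, 8.60 and 5.36 CPM in Mc1r LKO mice, with mouse 159 at 2.62 times the median of the other controls.

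The Ifi200 cluster on chromosome 1 encodes proteins with pyrin and HIN domains, several of which bind DNA. Ifi207 was at 6.69, 13.3, 5.26 and 11.6 CPM in controls and 6.01, 8.44, 6.21 and 3.37 CPM in Mc1r LKO mice, with a log2 fold change of -0.61 ± 0.34. Ifi204 was at 5.84, 11.1, 3.85 and 8.43 CPM against 6.56, 7.46, 8.03 and 2.45 CPM, with a log2 fold change of -0.24 ± 0.39. In each of these genes mouse 159 was highest and mouse 182 lowest. Mouse 182 was the lowest of the 8 for 5 of the 5 members of the cluster.

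Mndal and Ifi211, the latter with the largest positive log2 fold change of the members, had only a few read pairs in 1 mouse of each genotype. Mndal had 81, 103, 4 and 169 counts in controls and 67, 68, 134 and 1 counts in Mc1r LKO mice. In CPM this was at least 4.30 in the 6 other mice, 0.208 in control mouse 181 and 0.0511 in Mc1r LKO mouse 182. Ifi211 had 9, 6, 1 and 22 counts in controls and 10, 20, 22 and 1 counts in Mc1r LKO mice. The genotypes overlapped for both genes, and the log2 fold changes, -0.51 ± 0.92 for Mndal and 0.52 ± 0.79 for Ifi211, had standard errors larger than themselves. Of the 50-base windows in Ifi211 transcripts, 72.8% also occurred in another gene, and 19.6% of those of Mndal. Mndal and Ifi211 were each among the genes that shared windows with the other, so that the counts of the pair are uncertain.

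Both promoters held an ISRE match, and they are shown because both genes were nearly absent in the same mice.

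Mndal, chr1:173880188-173880267, minus strand: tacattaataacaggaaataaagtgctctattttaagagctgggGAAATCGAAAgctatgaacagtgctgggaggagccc
Ifi211, chr1:173913047-173913126, minus strand: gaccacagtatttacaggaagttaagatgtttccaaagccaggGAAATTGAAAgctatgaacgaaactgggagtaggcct

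The match began 36 bases before the start in Mndal and 37 bases before it in Ifi211. Ifi203 and Ifi207 of the same cluster, which were not nearly absent in these mice, also held a match, 35 and 41 bases before the start. In the count tables Mndal spans chr1:173849126-173880881 and Ifi211 chr1:173896345-173913046 of GRCm38, both on the minus strand. The neighbours of this pair were compared after the values had been seen. The mean of mice 181 and 182 over the mean of the other 6 was 0.0221 for Mndal and 0.0643 for Ifi211. It was 0.0714 for Ifi213, which lies on the far side of Ifi207 and had 3 counts in mouse 181 and 1 in mouse 182. Over the other genes of the cluster the ratio was between 0.335 and 0.785, except for Ifi202b at the end of the cluster, where it was 1.28. Of 12987 genes, 4 had levels in both mice below 1/8 of the lowest of the other 6, and these were Mndal, Ifi211, H19 and Matk.

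**Figure D4:**
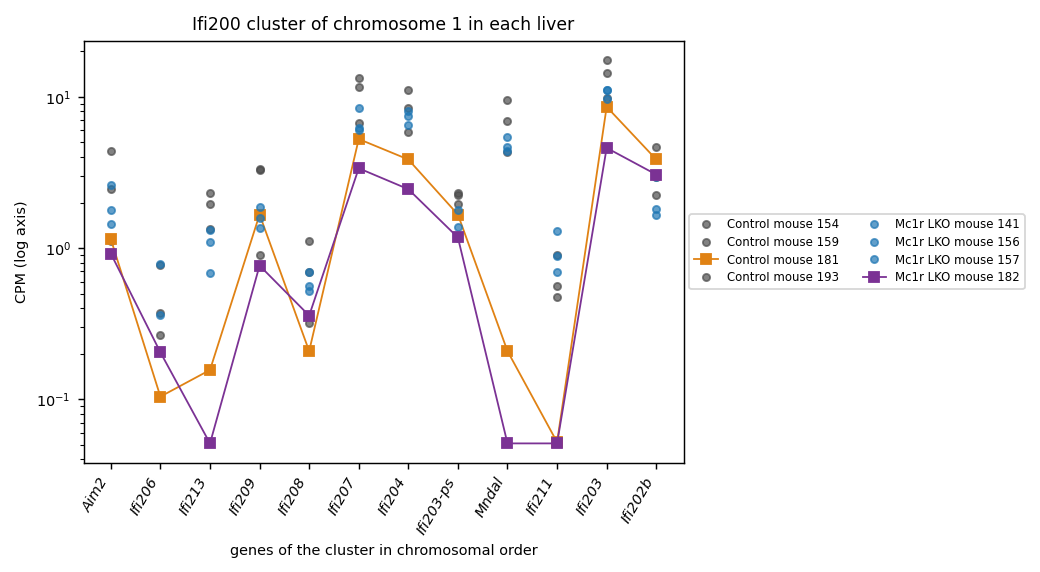
CPM on a log axis of 12 genes of the Ifi200 cluster, in chromosomal order, in each liver. Orange and purple squares joined by lines are control mouse 181 and Mc1r LKO mouse 182, and circles are the other 6 mice. The squares lie far below all circles at Ifi213, Mndal and Ifi211, closer below them at Ifi207, Ifi204 and Ifi203, and among the circles at Ifi202b.

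The genes upstream of the members were then examined, from lists of the same pathway. Of 20 genes for type I, II and III interferons, Ifnb1 included, 18 had 0 counts in every mouse, which allows up to 0.278 CPM in the shallowest library, and 0 passed the filter. Among 13 tested genes for receptors and proximal signalling, 10 had negative log2 fold changes, with a median of -0.08, and 0 passed the unadjusted test. The receptor chains Ifnar1 and Ifnar2 had log2 fold changes of -0.08 ± 0.10 and 0.04 ± 0.10, and the kinases Jak1 and Tyk2 of -0.08 ± 0.09 and -0.13 ± 0.11. None of these 4 genes passed the unadjusted test, which does not show that their levels were equal. Among 13 genes of interferon induction, the median log2 fold change was -0.09, 0 passed with the fold limit, and Irf3 had a log2 fold change of 0.19 ± 0.11.

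Further interferon-stimulated genes outside the member list leaned the same way as the members. Of 44 tested, 39 had negative log2 fold changes with a median of -0.25, and 4 were lower at the unadjusted p-value with the fold limit, against 2.66% of all genes. These were Samd9l (-0.49), Oas1b (-0.77), the RNA-editing enzyme Adar (-0.28) and Uba7 (-0.63), the activating enzyme of Isg15. In 2 of the 44, Oas1b and Adar, the genotypes did not overlap, where 4.16% of all genes did not. Mouse 159 was the highest in 34 of the 44, and without it the median was -0.12 and 28 of the 44 were negative. Without it 1 gene was lower (1.84% of all genes) and 2 were higher (3.81%). The count of lower genes was 0 without knockout mouse 141 (2.27% of all genes), 1 without mouse 182 (3.09%) and 7 without mouse 157 (2.22%). With single controls left out it was 2 (mouse 193, 2.35% of all genes) and 10 (mouse 181, 3.42%).

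The GTPases induced by interferon gamma were likewise highest in mouse 159. All 18 tested had negative log2 fold changes with a median of -1.15, 8 of the 18 were lower at the unadjusted p-value with the fold limit (2.66% of all genes), and mouse 159 was the highest in 18 of 18. The call depended on the tool. With limma-voom 1 of the 18 was lower (2.44% of all genes) with a median of -0.64, and with the likelihood ratio test of edgeR 14 were (2.82%). Their summed level was 1229 CPM in mouse 159, between 331.0 and 453.6 CPM in the other 3 controls and between 264.3 and 481.2 CPM in Mc1r LKO mice. Without mouse 159 the median log2 fold change was -0.30, and 2 of the 18 were lower (1.84% of all genes). The count was 3 without Mc1r LKO mouse 141 (2.27% of all genes) and 4 without Mc1r LKO mouse 156 (2.69%). It was 15 without control mouse 154 (2.99%) or without control mouse 181 (3.42%). By comparison, the summed level of the 42 members was 1167 CPM in mouse 159, between 748.9 and 943.6 CPM in the other 3 controls and between 698.6 and 899.2 CPM in Mc1r LKO mice.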

How the data were processed

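The authors trimmed the reads with Trim Galore 0.6.6, aligned them with STAR 2.7.6a and counted read pairs by strand on an Ensembl annotation of GRCm38 with featureCounts (Subread 2.0.1), and they deposited whole-number counts per gene and mouse without normalization. Reads shared by paralogs can be lost or split. The headers name GRCm38, while the methods write GRCh38. Groups were taken from the sample labels. The total counts set the precision of each value, and 4 mice per genotype allow no exact permutation p below 0.0286.

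From these counts, genes were filtered with filterByExpr (minimum count 10, minimum total count 15), normalized by TMM and tested with glmQLFTest in edgeR 4.0.16 (R 4.3.3) over all genes, with Benjamini-Hochberg adjustment. The test was tried on simulated counts first. Log2 CPM had a prior count of 2. Mice of a genotype were not duplicates of each other, since their counts differed with a chi-square of at least 11.6 per degree of freedom.

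The members and the gene lists were chosen with earlier results of these data known. Values per mouse are given for the 2 members of each role group with the highest mean RPKM, members past the unadjusted threshold, members whose genotypes did not overlap, and the 5 members with the largest fold changes. Others named with values were chosen after these were seen. Sharing between paralogs was counted over 50-base windows of GENCODE transcripts.

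Alternatives were DESeq2 1.42.0, the likelihood ratio test of edgeR, limma-voom (limma 3.58.1), RLE, upper quartile and library size scaling, no filter beyond 1 count, at least 10 counts in every mouse, other limits on the fold change, the GAS motif in place of the ISRE motif, and leaving out each mouse. Leaving out mice 181 and 182 together was chosen after seeing the data. No library batch is named for these mice. A result for 1 gene of the signalling list is not reported here.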

Additional observations from a re-analysis of the deposited data

Results flagged for a closer look

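Of the 84 sets of 4 mice examined (42 genes in 2 genotypes), 1 held a mouse that stood apart by Dixon's criterion at the 95% level, where chance alone gives about 4.2. It was Ifit1 in control mouse 181, at 2.86 CPM, with the next control at 6.80 CPM and the highest at 7.24 CPM. The cause was not tested.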

How the results depend on the processing

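No member passed the adjusted p-value under any alternative that gave one (DESeq2 gave none for 22 members), and the median log2 fold change of the members stayed negative, from -0.39 (without control mouse 181) to -0.09 (without control mouse 159), with between 31 and 38 of 42 genes negative over the removal of each mouse. Mouse 159 was the highest in 25 or 26 members under every scaling and filter. The number of members lower at the unadjusted p-value was 2 as reported (2.66% of all genes) and 0 with a fold limit of 1. It was 4 with scaling by library size alone (3.73% of all genes) and 5 with no filter beyond 1 count (2.55%). Without mice 181 and 182 it was 4 (3.20%), and over the removal of each mouse it was between 0 and 7 (1.84% to 3.42%). The number lower without overlap, 0 as reported, was 1 without mice 181 and 182 and between 0 and 2 over the removal of each mouse. With fewer mice a lack of overlap arises more readily for any gene, and the share of all genes under these removals is not given. The GAS motif was found in 7 member promoters against 20 with the ISRE motif. The causes were not tested.

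Fold changes of 17 members, Zbp1 among them, changed sign under some alternative. With limma-voom, Oasl1 was -0.017 and Ifi35 0.0090. With scaling by library size alone, Oasl1 was -0.020, Isg15 -0.012 and Trim25 -0.027. Without mice 181 and 182, Oas1a was 0.0011 and Isg15 -0.21. Over the removal of each mouse, the range was -0.26 to 0.12 for Bst2, -0.21 to 0.014 for Ddx58, -0.22 to 0.046 for Dhx58, -0.46 to 0.032 for Ifi204, -0.12 to 0.14 for Ifi35, -0.090 to 0.0051 for Ifih1, -0.39 to 0.022 for Ifit1, -0.34 to 0.11 for Ifit3b, -0.17 to 0.26 for Isg15, -0.36 to 0.14 for Mx2, -0.53 to 0.043 for Oas1a, -0.10 to 0.20 for Oasl1, -0.047 to 0.32 for Rsad2, -0.067 to 0.11 for Trim25, -0.42 to 0.021 for Usp18, -0.39 to 0.17 for Xaf1 and -1.17 to 0.038 for Zbp1.

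The depth limits low members such as Ifi211, with at most 22 counts in a mouse. The genotypes were compared without pairing, because each mouse had a single genotype and no litter or cage was used to match the mice.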

Other observations

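Some other cell markers also varied between the mice, and their summed levels overlapped between the genotypes. The summed level of 4 conventional dendritic cell genes was between 3.18 and 13.4 CPM in controls, highest in mouse 159, and between 2.86 and 7.87 CPM in the knockouts (exact permutation test, two-sided, p = 0.400). The 4 monocyte genes summed to 1.77 CPM in control mouse 181 and 1.43 CPM in Mc1r LKO mouse 182, the lowest of their genotypes, and reached 7.61 CPM in control mouse 193. The 5 sinusoidal endothelial genes, by contrast, stayed between 147.0 and 175.2 CPM in controls and between 108.1 and 168.7 CPM in Mc1r LKO mice, each of them lowest in mouse 182. Plasmacytoid dendritic cell genes, which mark the main producers of type I interferon, were near the detection limit, between 0.052 and 1.33 CPM as a sum of 4 genes.

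Ticam1, the adaptor of Toll-like receptor 3, was at 19.8, 17.9, 17.1 and 19.2 CPM in control mice and 20.9, 21.2, 21.2 and 21.8 CPM in Mc1r LKO mice. It was the 1 gene of 13 on the interferon induction list in which the genotypes did not overlap, where 4.16% of all genes did not. Its log2 fold change of 0.20 ± 0.09 was below the limit of 0.25.

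The imprinted transcript H19, 1 of the 4 genes nearly absent in mice 181 and 182, had 79, 31, 2 and 260 counts in controls and 208, 60, 83 and 6 counts in Mc1r LKO mice.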
